A study of Pistacia vera with 121 samples.

Results

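The shell of the pistachio fruit was compared between 1508 and 1357 growing degree days (°C), a running sum of daily heat used to place fruit development on a common scale. The comparison holds 6 of the series' 35 shell libraries: the 3 libraries labelled 1508 (titled S21, S22 and S23) and the 3 labelled 1357 (S17, S18 and S19). The labels alone decided which libraries belong to each side, and the comparison was chosen with earlier results of these data known. All are from the cultivar Kerman, and no treatment or genotype contrast is given. The wider study followed hull (the soft layer around the shell), shell (the endocarp) and kernel (the seed) by RNA sequencing. It held 35 shell libraries at 11 sampling points, 47 hull libraries at 15 and 39 kernel libraries at 12. Nothing in the labels says that libraries of a sampling point came from separate trees or clusters. The p-values thus rest on a spread between libraries that may be partly technical. For the shell tests this spread was estimated over all 35 shell libraries.

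The endocarp of a pistachio is the layer that becomes the hard, dry shell. In stone fruits and nuts generally, endocarp cells first divide and expand, then lay down thick secondary walls and fill them with lignin, a process in which cellulose synthesis and the phenylpropanoid pathway are known to be active before the cells die. The hull around the shell stays soft, and the kernel inside it fills later in the season. The gene identifiers of the deposited table carry no names or functions, and none (0 of 38315) matched the RefSeq gene table used here, so the changes are described by number, size, timing and tissue, and not by pathway.

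Of the 38315 identifiers in the table, 37063 start with PvKer and were the genes described. The other 1252 are named after assembly contigs. In the 6 libraries, 13448 PvKer genes had no count at all. Enough counts for a test were found for 18810 PvKer genes, and the remaining 18253 were not tested. The libraries labelled 1508 held 11145279 (S21), 10863028 (S22) and 11243645 (S23) counts. Those labelled 1357 held 8835327 (S17), 11997162 (S18) and 12133636 (S19) counts. Between 20529 and 20724 PvKer genes had a count at 1508 and between 20273 and 20844 at 1357. Contig-named identifiers took 2.65, 2.68 and 3.38% of counts in S21, S22 and S23, against 4.84, 3.26 and 1.06% in S17, S18 and S19, so S19 was the lowest.

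On the log2 scale of counts scaled to a common library total (CPM), each of the 6 libraries correlated best with the mean of its own sampling point in shell (r of 0.981 to 0.989, the library itself left out). No pair of replicates agreed within sampling noise, the lowest chi-square per degree of freedom being 8.51. The tissue was checked against 37 genes that were abundant in kernel and near 0 in hull at the same points. Their summed level was 34.5, 41.5 and 35 CPM in S21, S22 and S23, against 39.7, 32.6 and 24.6 CPM in S17, S18 and S19, where kernel libraries had 6190 to 9770 CPM. None of the 35 tested members of that list was called in either direction, with a median log2 change of 0.27, and between 0 and 2 members were at 0 in each of the 6 libraries. A matching list of genes high in hull and absent from shell had 0 members, so hull tissue in the shell libraries could not be gauged this way. Outside the 6 libraries, H15, labelled hull 1357, correlated best with shell 1223 (r = 0.972, against 0.902 with its own group). S14, labelled shell 1223, correlated best with hull 1223 (r = 0.983, against 0.928 with its own group). Counts of called genes that use the library labelled H15 or the library labelled S14 are given with and without them, and other values include both unless stated.

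More genes were called lower than higher in shell at 1508 compared with 1357. At 1508 the higher ones took up a far larger part of all counts than at 1357, and the lower ones a far smaller part. The direction of both follows from how the genes were picked. By edgeR's quasi-likelihood test, called at a Benjamini-Hochberg adjusted p below 0.05 where the log2 change was 1 or more in size, 1438 genes were higher at 1508 (7.64% of the genes tested) and 1850 were lower (9.84%). Together these were 3288 genes, or 17.5%. With RLE size factors in place of the TMM scaling 1604 were higher and 1653 lower, so the margin between the directions depends on the scaling. An unadjusted p under 0.05 was reached by 7460 genes. Every library labelled 1508 lay above every library labelled 1357 in 1407 of the 1438 higher genes, and below in 1828 of the 1850 lower genes. The same separation was found in 25.2% of all genes tested in the upward direction and in 27.5% in the downward direction. In such bulk samples fewer cells of a type and less RNA per cell cannot be told apart.

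The median log2 size of the change was 1.53 (quartiles 1.21 and 2.15) among higher genes and 1.61 (quartiles 1.24 and 2.18) among lower genes. A log2 change of at least 2 was reached by 417 higher and 568 lower genes (2.22 and 3.02% of those tested), and one of at least 3 by 151 and 163 genes (0.803 and 0.867%). At the extreme the order turned: a log2 change of at least 4 was found in 54 higher and 44 lower genes (0.287 and 0.234%), and one of at least 5 in 24 and 17 (0.128 and 0.0904%). Some called genes had almost no counts on the lower side, where a fitted change depends on the prior count. In 44 higher genes the 3 libraries labelled 1357 held 3 counts or fewer in sum, and in 43 lower genes the 3 libraries labelled 1508 did. The median log2 change over all genes tested was -0.07.

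Changes were found at all levels of expression. Genes were classed by their mean CPM over all 35 shell libraries. Among the 2388 genes with a mean under 1 CPM, 3.77% were higher and 2.76% lower at 1508. Between 1 and 10 CPM these shares were 7.78 and 10.1%, between 10 and 100 CPM they were 8.29 and 11%, and among the 2396 genes at 100 CPM or more they were 8.93 and 12.2%. Lower genes thus outnumbered higher genes in each class above 1 CPM. CPM values are not divided by gene length, so they compare libraries and not genes.

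**Figure D1:**
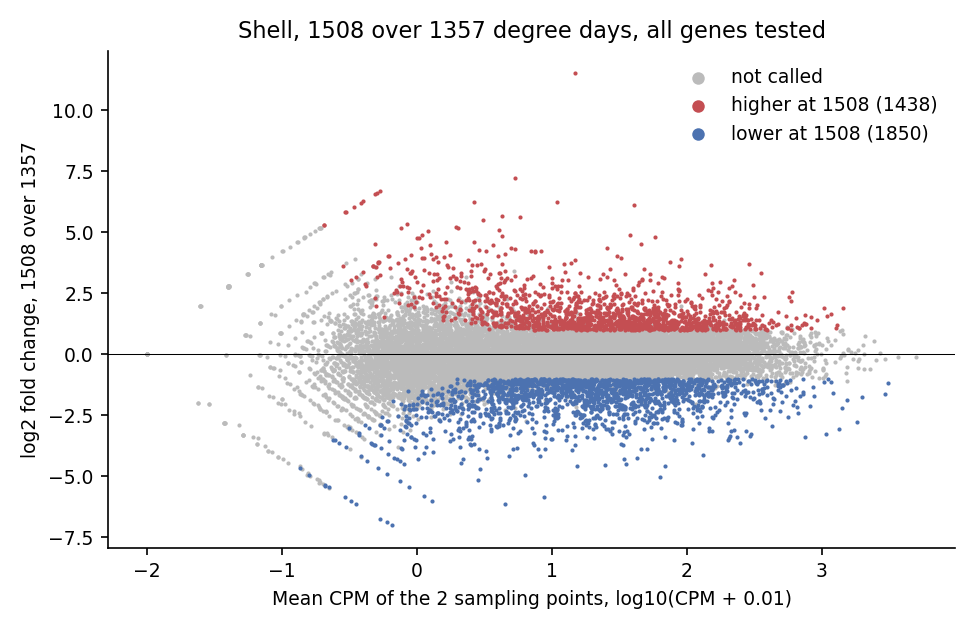
Each point is 1 of the 18810 PvKer genes tested in shell. The x axis gives the mean level at the 2 sampling points as log10(CPM + 0.01) and the y axis the fitted log2 fold change of 1508 over 1357. The 1438 genes called higher and the 1850 called lower run across the whole range of levels, and the largest changes lie at low levels, where counts are few.

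The genes called higher took 13.8% of all counts in S21, 15.0% in S22 and 13.7% in S23, against 5.02% in S17, 5.31% in S18 and 4.62% in S19. The groups did not overlap, and the share at 1508 was above that at 1357 in each library. The genes called lower took 6.04% in S21, 5.6% in S22 and 5.9% in S23, against 17% in S17, 17.1% in S18 and 19.5% in S19. These shares describe the size of the change in share of counts. They have no test, since the genes were picked on these libraries.

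Neither the gain nor the loss was carried by a handful of genes. The 10 genes with the largest difference in mean CPM made up 11.4% of the summed gain of the higher genes, and 100 genes made up 45.1%. It took 122 genes to reach 50%. The loss was somewhat more concentrated: 10 genes made up 16.6% of the summed loss of the lower genes, and 101 genes were needed for 50%.

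Since the identifiers have no names, 4 genes were named by rule: the largest log2 change and the largest difference in mean CPM in each direction, among genes averaging 10 CPM or more at their higher point and with no overlap between the libraries of the 2 points. Of the called genes, 1076 higher and 1313 lower ones met those conditions. Their values at 1508 and 1357 are what chose them. Their course at other points and in other tissues did not enter the choice.

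PvKer.01.g010310 gained the most transcript, by mean CPM, among higher genes that met the rule. It had 2370, 2330 and 2140 CPM in S21, S22 and S23, against 521, 737 and 522 CPM in S17, S18 and S19. The 2 sets were far apart and the spread within each was small, with 2280 ± 126 CPM at 1508 and 593 ± 125 CPM at 1357 (SD, n = 3 each). The fitted log2 change was 1.91 ± 0.29 (SE), with an edgeR adjusted p of 1.47e-05. No other shell point came near 1508: its mean was 207 CPM at 993, 626 CPM at 1223, 695 CPM at 1657 and 709 CPM at 2007. The gene thus stood at its high level at 1 sampling point, and 1657 over 1223 gave a log2 change of 0.09 ± 0.26 (edgeR adjusted p = 0.894).

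PvKer.15.g369170 had the largest log2 change among higher genes that met the rule, but 1 library carried most of it. It had 4.40 CPM in S21, 1.38 CPM in S22 and 59.1 CPM in S23, against 0.453 CPM in S17, 0.417 CPM in S18 and 0 in S19. All 3 libraries labelled 1508 were above all 3 labelled 1357, and S23 was far above the rest. The fitted log2 change was 6.24 ± 1.12 (SE, edgeR adjusted p = 0.000113). Without S23 it was 3.27, still past the threshold with an edgeR adjusted p of 0.0113. Mean levels at the later shell points were 1.37 to 2.66 CPM. At 865 the shell mean was 4.43 CPM, with libraries from 2.56 to 6.0 CPM. Each library labelled 865 was thus above S22, and the level of S21 lay within their range.

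PvKer.01.g027630 had the largest fall by fold among lower genes that met the rule. It was close to silent at 1508, with 0.538 CPM in S21, 0.368 CPM in S22 and 0 in S23 (6, 4 and 0 counts), against 16.6, 14.5 and 20.7 CPM in S17, S18 and S19. The fitted log2 change was -5.83 ± 0.96 (SE), with an edgeR adjusted p of 5.21e-05. Across the shell series the gene stood at a mean of 8.5 to 17.3 CPM at 865, 993, 1106 and 1357, and at 1.37 CPM or less at each point after 1508, with no count in the 4 libraries labelled 2139. At 1223 its mean was 6.72 CPM, where the library labelled S14 had 0.196 CPM. The difference between 1657 and 1223 compares libraries outside the 6, though the 6 enter the same fit and its estimate of spread. This difference was -2.34 ± 0.75 with all libraries (edgeR adjusted p = 0.066) and -2.75 ± 0.59 without S14 (edgeR adjusted p = 0.00503).

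PvKer.03.g067890 lost the most transcript, by mean CPM, among lower genes that met the rule. It had 1420, 1660 and 1380 CPM in S21, S22 and S23, against 4060, 4100 and 5160 CPM in S17, S18 and S19, and the 2 sets did not overlap. The fitted log2 change was -1.61 ± 0.27 (SE), with an edgeR adjusted p of 5.07e-05. It was an abundant shell transcript throughout, without a steady course. Its mean was 1960 CPM at 865, 4380 CPM at 1106 and 2690 CPM at 1223. Later it was 2100 CPM at 1657, 2690 CPM at 1881 and 1490 CPM at 2139. For 1657 over 1223 the log2 change was -0.42 ± 0.25 (edgeR adjusted p = 0.349), or -0.625 ± 0.228 without S14 (edgeR adjusted p = 0.111).

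**Figure D2:**
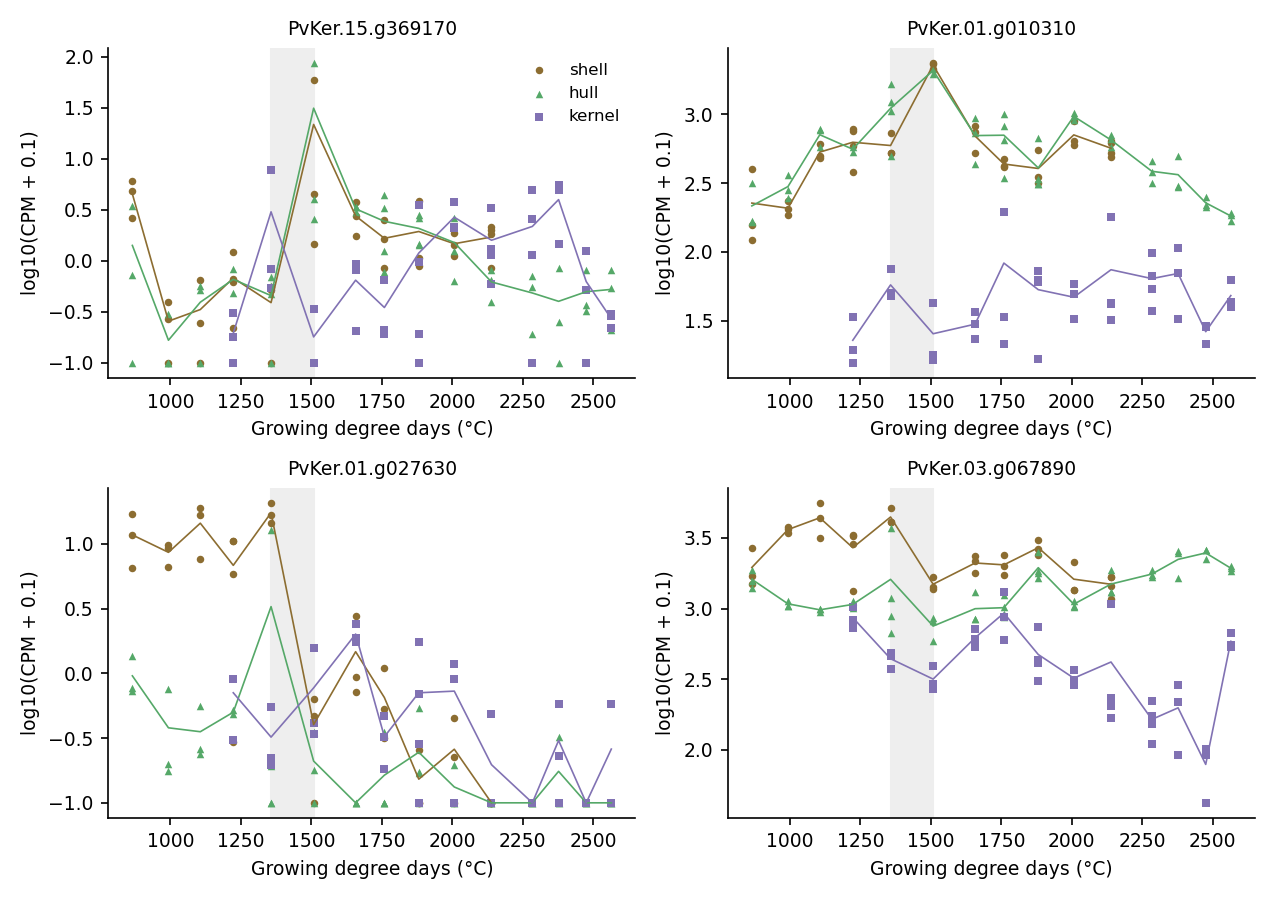
Levels of the 4 named genes, as log10(CPM + 0.1), over growing degree days in °C, with 1 point per library, lines through the means of shell, hull and kernel, and the interval from 1357 to 1508 shaded. PvKer.01.g010310 peaked in shell and hull at 1508, PvKer.15.g369170 spread widely among the libraries at 1508, and PvKer.01.g027630 was near 0 in shell after the interval.

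Seen over the season, most of the higher genes had their peak at 1508 itself. In the shell, 915 of the 1438 higher genes (63.6%) had their highest mean of all 11 points at 1508, where 13.8% of all genes tested had theirs. At the other end, 625 of them (43.5%) were lowest at 993, where 17.5% of all genes tested were lowest, and 302 (21%) at 1357, against 6.69% of all genes tested. The comparison itself selects for a high 1508 and a low 1357, so these counts are a description without a test. The share of counts they took averaged 5.38% at 865, 3.97% at 993, 5.42% at 1106, 8.23% at 1223, 4.98% at 1357, 14.2% at 1508, 9.43% at 1657, 7.32% at 1759, 6.81% at 1881, 9.63% at 2007 and 8.89% at 2139. After 1508 the share came back to between 6.81 and 9.63%, which spans the 8.23% seen at 1223, and the point 1357 lay below both of its neighbours.

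The lower genes took a large share of shell counts early and a small one late. Their share of shell counts averaged 21.3% at 865, 22.9% at 993, 19.2% at 1106, 11.4% at 1223, 17.9% at 1357, 5.85% at 1508, 8.73% at 1657, 9.16% at 1759, 9.64% at 1881, 7.28% at 2007 and 7.28% at 2139. Each point after 1508 was thus below each point before it. Of the 1850 lower genes, 693 (37.5%) were highest at 993 and 525 (28.4%) at 865, where 14% and 17.8% of all genes tested were highest, while 709 (38.3%) were lowest at 1508, where 13.3% of all genes tested were lowest. The dip at 1223 was present in each of its 4 libraries, at 13.3% in S13, 9.18% in S14, 10.7% in S15 and 12.4% in S16, so it does not rest on the library labelled S14.

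**Figure D3:**
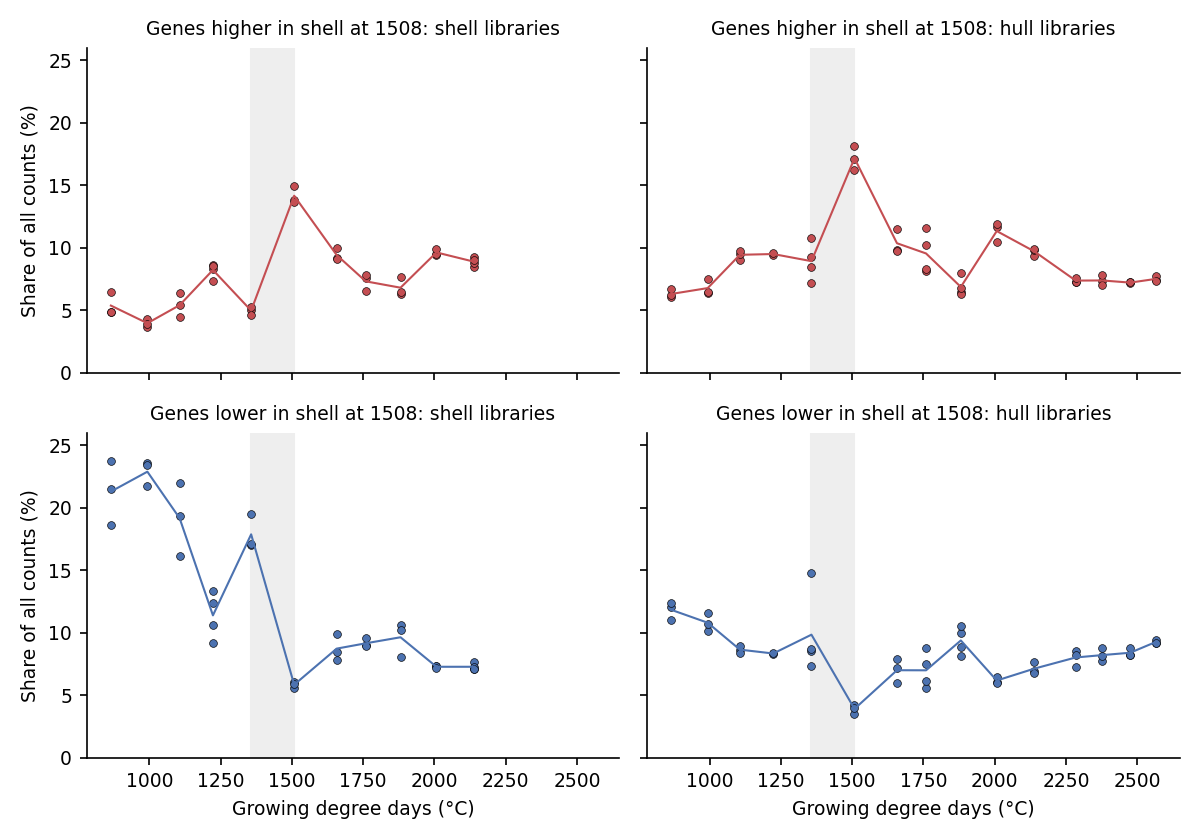
Share of all counts (%) taken by the genes called higher (upper panels) and lower (lower panels) in shell at 1508, in every shell library (left) and hull library (right), over growing degree days in °C. Points are libraries, lines join the means, and the shaded band is the interval from 1357 to 1508. The higher genes peak at 1508 in both tissues, and the lower genes stay low in shell after 1508.

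Shell libraries outside the 6 were then used alone. The mean of the 5 shell points after 1508 was set against the mean of the 4 points before 1357. By this measure 1031 of the 1850 lower genes (55.7%) were lower later by at least 1 on the log2 scale, against 16% of all genes tested, with a median of -1.13. Of the 1438 higher genes, 325 (22.6%) were higher later by that much, against 9.48% of all genes tested, with a median of 0.42. Without the point 1223 these were 1137 lower genes (61.5%, against 18.3%) and 453 higher genes (31.5%, against 12.8%).

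The 2 points on either side of the interval were then compared with each other, 1657 over 1223, in the same fit but with libraries outside the 6. Far fewer genes differed. In all 141 genes (0.75%) were higher and 478 (2.54%) lower at 1657 by edgeR's quasi-likelihood test, 3.29% together. Of the 1850 genes lower at 1508, 179 (9.68%) were lower and 5 were higher at 1657, with a median log2 change of -0.52, where the median of all genes tested was -0.05. Of the 1438 genes higher at 1508, 36 (2.50%) were higher and 19 were lower, with a median of 0.11. Without the library labelled S14, 118 genes (0.629%) were higher and 569 (3.04%) lower (3.66% together), including 33 of the higher genes and 346 (18.7%) of the lower genes. The overall counts moved with single libraries: 76 higher and 103 lower without S25, 53 and 45 without S26, and 255 lower without S13.

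The same interval was sampled in the hull, in 3 libraries labelled 1508 and 4 labelled 1357, none of which enters the shell comparison. There 1429 genes (7.49%) were higher and 2511 (13.2%) lower at 1508 by edgeR's quasi-likelihood test. With library totals in place of the TMM scaling the hull split was 914 higher and 3550 lower, so its balance depends on the scaling. Of the 1438 genes higher in shell, 1429 could be tested in hull, and 693 of them (48.5%) were higher there and 7 lower, with a median log2 change of 1.04. Of the 1850 genes lower in shell, 1796 could be tested in hull, and 1012 (56.3%) were lower there and 5 higher, with a median of -1.30. The median over all genes tested in hull was -0.14. The shared genes made up 48.2% of the shell's and 48.5% of the hull's higher genes, and 54.7% of the shell's and 40.3% of the hull's lower genes.

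The hull values for lower genes depended on 1 library. The genes lower in shell took 14.8% of counts in the library labelled H15, against 7.32 to 8.74% in the other hull libraries labelled 1357, and 3.52 to 4.25% in hull libraries labelled 1508. Without H15, 1576 hull genes (8.29%) were higher and 2070 (10.9%) lower. Of the genes lower in shell, 615 of 1779 (34.6%) were then lower in hull and 55 were higher, with a median of -0.86. The higher genes moved little: 647 of 1429 (45.3%) were higher in hull and 9 lower, with a median of 1.00. The genes higher in shell took 16.2% in H21, 17.1% in H22 and 18.1% in H23, against 7.22% in H15 and 8.49 to 10.8% in H17, H18 and H19.

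Peaks at this point were also seen in hull. Of the 1429 genes higher in shell and tested in hull, 849 (59.4%) had their highest hull mean of 15 points at 1508, where 15.5% of all genes tested had theirs. Of the 1796 lower genes, 582 (32.4%) had their lowest hull mean at 1508, against 15.1% of all genes tested. Across the 18291 genes tested in both tissues, the log2 changes, H15 included, had a Pearson r of 0.649 and a Spearman rho of 0.664. Genes are not independent replicates, and these values only describe the plot of shell and hull changes. In the kernel the genes higher in shell took 17.5 ± 1.26% of counts at 1508 and 14.1 ± 2.78% at 1357 (SD, n = 3 each). By library this was 16.76% in K13, 18.97% in K15 and 16.81% in K16, against 16.73% in K9, 11.2% in K10 and 14.32% in K11. The libraries of the 2 points did not overlap, but K9 lay just under the lowest library labelled 1508. The kernel mean was 22.2% at 1759. This kernel difference was not tested.

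**Figure D4:**
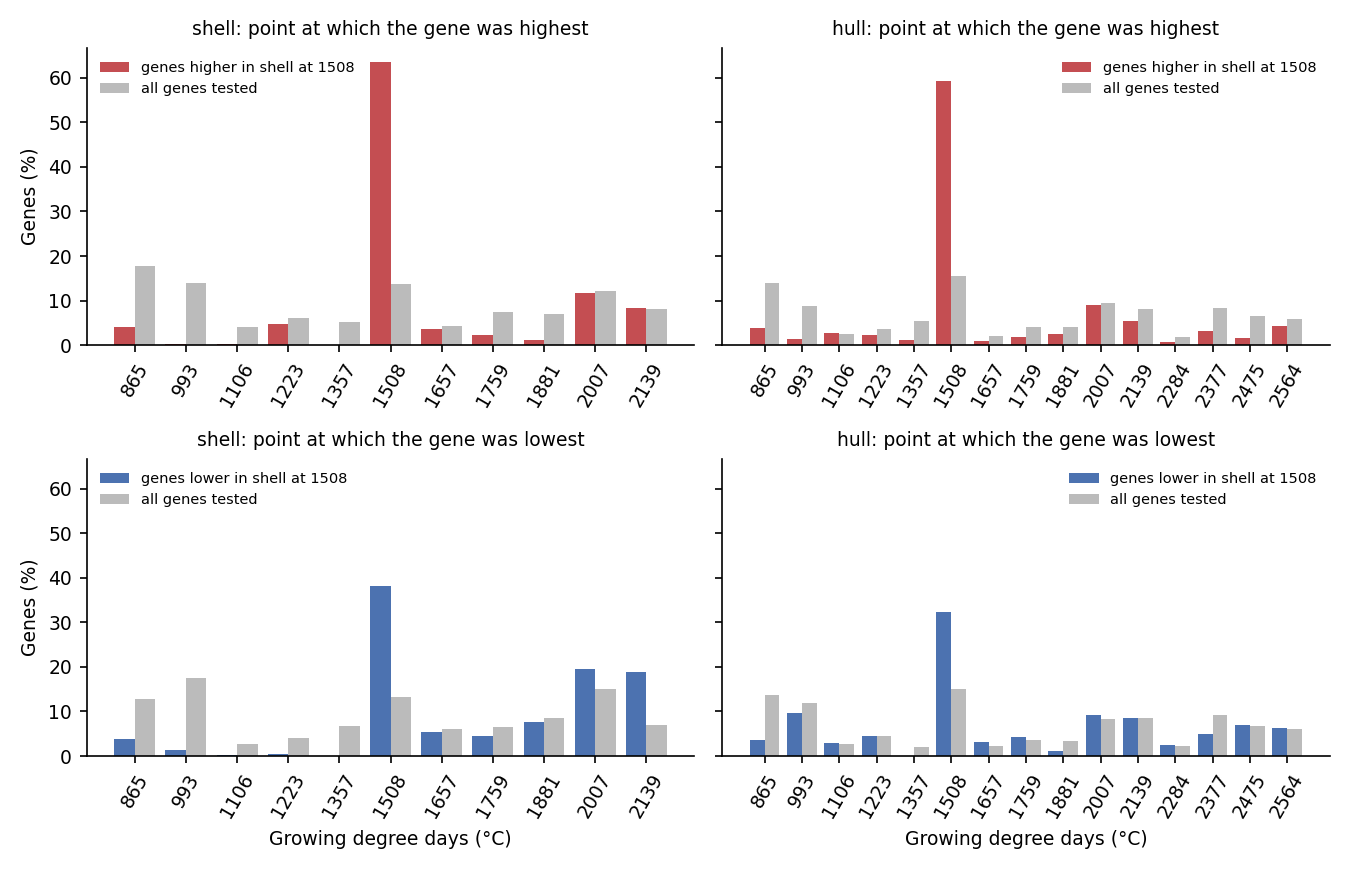
Percent of genes with their highest mean (upper panels) or lowest mean (lower panels) at each sampling point, in shell (left) and hull (right). Coloured bars are genes called higher (upper) or lower (lower) in shell at 1508, and grey bars are all genes tested. At 1508 the coloured bars reach 63.6 and 59.4% for highest means, and 38.3 and 32.4% for lowest means.

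The difference between the tissues was tested itself, as the shell change minus the hull change in 1 fit of all 82 shell and hull libraries. By edgeR's quasi-likelihood test 167 genes (0.837%) had a more positive change in shell and 180 (0.902%) a more negative one, 1.74% in all. These counts depend on the scaling and on single libraries: library totals gave 502 more positive and 72 more negative, all libraries of the 3 tissues in 1 fit gave 18 and 35, and leaving out S19 gave 34 and 67. Among them were 85 of the 1438 genes higher in shell, of which 81 were not called higher in hull and 7 were called lower there. Also among them were 62 of the 1850 genes lower in shell, of which 61 were not called lower in hull and 5 were called higher there. Without the libraries labelled H15 and S14, 362 genes (1.82%) were more positive and 844 (4.23%) more negative in shell, 6.05% in all. These included 145 of the genes higher in shell and 395 (21.4%) of the genes lower in shell. Both sets were picked on the 6 libraries that form the shell side of the difference, so their counts here are a description.

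None of the 4 named genes passed the test of the difference with all libraries. PvKer.01.g010310 had 1970, 2120 and 2160 CPM in H21, H22 and H23, against 494 CPM in H15 and 1650, 1220 and 1060 CPM in H17, H18 and H19. It was higher in hull by 1.14 ± 0.29 on the log2 scale (edgeR adjusted p = 0.0021), or by 0.89 ± 0.28 without H15 (edgeR adjusted p = 0.0111), which is under the fold threshold. The shell change exceeded the hull change by 0.78 ± 0.43, and this difference did not pass (edgeR adjusted p = 0.375), nor did it without H15 and S14 (1.01 ± 0.40, edgeR adjusted p = 0.103).

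PvKer.03.g067890 had 586, 810 and 859 CPM in H21, H22 and H23, against 3690 CPM in H15 and 675, 889 and 1180 CPM in H17, H18 and H19. H15 was at the level of the shell libraries. The hull change was -0.87 ± 0.31 with H15 (edgeR adjusted p = 0.0252) and -0.05 ± 0.20 without it (edgeR adjusted p = 0.88). The difference between the tissues was -0.73 ± 0.41 with all libraries (edgeR adjusted p = 0.395) and -1.56 ± 0.30 without H15 and S14 (edgeR adjusted p = 0.000237). The gene was named for its fall in shell, which is one side of this difference, and H15 was left out after the data were seen, so the value without it is a description.

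PvKer.01.g027630 was barely found in hull. It had 0, 0.25 and 0.0803 CPM in H21, H22 and H23, against 12.6 CPM in H15 and 0, 0 and 0.0938 CPM in H17, H18 and H19. With H15 the hull change was -4.43 ± 1.61 (edgeR adjusted p = 0.0299), and without H15 the gene had too few counts for the hull test. The difference between the tissues was -1.42 ± 2.20 with all libraries (edgeR adjusted p = 0.822). Without H15 it has no measurable hull side, and no value is given.

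**Figure D5:**
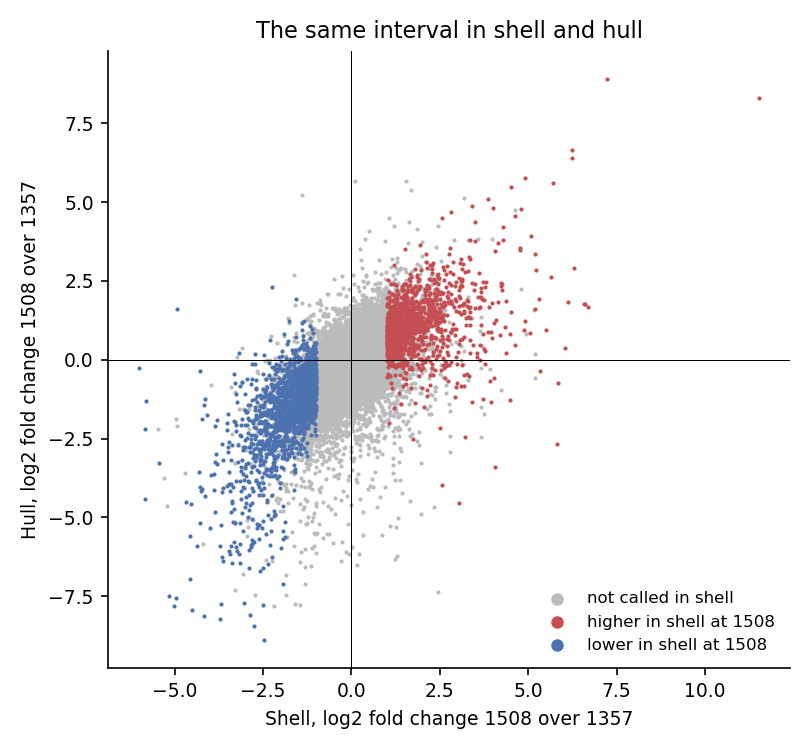
Log2 fold change of 1508 over 1357 in shell (x axis) and in hull (y axis, all 7 hull libraries) for the 18291 genes tested in both. Coloured points are called in shell. Most points called higher in shell lie above 0 in hull, with a median of 1.04, and most called lower lie below 0, with a median of -1.30.

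PvKer.15.g369170 also stood out in a single hull library. It had 3.98 CPM in H21, 87.3 CPM in H22 and 2.49 CPM in H23, against 0.589 CPM in H15 and 0, 0.371 and 0.469 CPM in H17, H18 and H19. All 3 hull libraries labelled 1508 were above all 4 labelled 1357, and the hull change of 6.65 ± 1.03 (edgeR adjusted p = 3.8e-06) was close to that in shell, with a difference of -0.42 ± 1.67 (edgeR adjusted p = 0.948), or -0.77 ± 1.78 without H15 and S14 (edgeR adjusted p = 0.863). The standard error of that difference is too wide to show that the tissues act alike.

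It was not alone in this. In 27 of the 1438 higher genes S23 had at least 3 times the CPM of both other libraries labelled 1508, in 7 genes S22 did, and in 0 genes S21 did. As shares of the higher genes these were 1.88% for S23, 0.487% for S22 and 0 for S21, against 0.936% for S23, 1.17% for S22 and 1.06% for S21 among all genes tested. These 27 genes were set apart after their values were seen, so they have no test. Their summed level was 563.7 CPM in S21, 392.2 CPM in S22 and 2872 CPM in S23, against 221.0 to 253.3 CPM in the shell libraries labelled 1357. In hull, H22 had at least 3 times the CPM of both H21 and H23 in 18 of the 27 (66.7%), and neither H21 nor H23 led in any. Among all genes higher in shell H22 led in 2.23%, and among all genes tested in 2.83%. The summed level in hull was 844.3 CPM in H21, 3435 CPM in H22 and 624.6 CPM in H23, against 216.4 to 319.6 CPM in hull at 1357. Apart from S23 and H22, no shell library was above 1314 CPM and no hull library above 945.4 CPM. In kernel the highest library was K30, labelled 2007, at 3868 CPM, and the 3 kernel libraries labelled 1508 had 602.2 to 964.8 CPM.

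By the number in the identifier after PvKer, from 1 to 15, the share of tested genes that were higher ran from 6.36 to 9.33% and that of lower genes from 8.11 to 11.5%. No number stood far from the overall 7.64 and 9.84%. The identifier order was also read for called neighbours. Over 12910 neighbouring pairs with both genes tested, a higher gene was followed by another higher gene in 12.2% of cases, against 7.39% of all second genes. A lower gene was followed by another lower gene in 13.9%, against 10.1%. Most runs of 3 or more were short, with 17 runs of 3 and 4 runs of 4 among lower genes, and 3 runs of 3 and 2 runs of 4 among higher genes.

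The longest run was 8 neighbouring identifiers numbered 7, all higher at 1508, singled out after the values were seen. Their summed level was 261 ± 33.7 CPM at 1508 and 66.9 ± 1.45 CPM at 1357 (SD, n = 3 each). In hull it was 260 ± 39.8 CPM at 1508 (n = 3) and 186 ± 64.5 CPM at 1357 (n = 4). By edgeR's quasi-likelihood test 3 of the 8 were higher in hull. The same call was made for 7.49% of all genes tested in hull and 48.5% of the genes higher in shell. Of the 5 not called in hull, 3 had a negative log2 change. The shell mean was 130 ± 26.5 CPM at 1223 (n = 4) and 103 ± 10.9 CPM at 1657 (n = 3), so 1357 lay below both 1223 and 1508. Most of the counts belonged to 1 gene of the run, with 2051, 2057 and 2004 counts in S21, S22 and S23, against 442, 506 and 557 counts in S17, S18 and S19. Others were close to silent, and 1 had 6, 16 and 0 counts at 1508 and 0 in all libraries labelled 1357. How reads shared by near-identical copies were assigned is not given in the sources used here, so single members of such a run are uncertain.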

How the data were processed

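Per the labels' protocols, a TruSeq RNA kit was used and fragments were read as 150 bp pairs. The deposited values are raw counts, whole numbers by gene and library, that the authors had not scaled. Trimmomatic 0.39 and Bowtie2 2.3.4.1 are named in the submitters' processing notes, without their role. How reads were counted, on which build and annotation and with or without strand, is not given in the sources used here, so close copies and overlapping genes are uncertain.

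Groups came from the labels, and replicate numbers were given in accession order. No label gives a batch. The test was edgeR's quasi-likelihood test (version 4.0.16, R 4.3.3; TMM, filterByExpr by group, estimateDisp, glmQLFit and glmQLFTest), with 1 mean per sampling point over all 35 shell, 47 hull or 82 shell and hull libraries. P-values were adjusted by Benjamini-Hochberg over all identifiers tested, the 86 contig-named ones of the shell fit included. Calls needed an adjusted p below 0.05 and a log2 change of 1 or more in size, and only PvKer genes were counted. Standard errors are the absolute log2 change over the square root of F. CPM and shares use library totals, with no TMM factor. Genes were named by the rule given in the text. The scripts were tested on simulated data. The compared libraries, lists and tests were chosen with earlier results of these data known. Alternatives used DESeq2 1.42.0 and limma 3.58.1.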

Additional observations from a re-analysis of the deposited data

Results flagged for a closer look

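Dixon's test looked for a sample far from the others in hull at 1357 and shell at 1223, the compared groups of 4 libraries. Of 18 combinations of measure and group, 4 were marked, where chance marks about 1 in 20. These groups hold H15 and S14, and other groups of 4 libraries in the series were not screened. In hull at 1357, H15 had 12.6 CPM of PvKer.01.g027630, against 0 to 0.0938 CPM in the other 3 libraries. H15 also had 3690 CPM of PvKer.03.g067890, against 675 to 1180 CPM. In shell at 1223, S15 held 8456109 counts, against 14251463 to 15293313 in the other 3 libraries. Its contig-named identifiers took 9.49% of counts, against 0.237 to 0.89% in the others.

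The change over the interval differed between shell and hull, by the test of the difference, in 167 genes that were more positive and 180 genes that were more negative in shell. Without the libraries labelled H15 and S14 these counts were 362 and 844, with library totals 502 and 72, and without S19 they were 34 and 67.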

How the results depend on the processing

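Replicate numbers within a group follow accession order, but shell and hull libraries of a point share title numbers, whose meaning the labels do not give. Same-numbered libraries did not deviate together at 1508 and 1357 (r of -0.23 to 0.08 over genes, 6 pairs), so they were not taken as paired. At 1508, S23 with H22 had r = 0.21 and S22 with H23 r = 0.21. With a replicate block by title number, also chosen after seeing the data, shell minus hull gave 386 more positive and 749 more negative genes. H15 has no partner at its point and does not enter that contrast. In shell, 1508 over 1357, the counts of higher and lower genes moved by more than 1.5 times only with the fold threshold: 2681 and 2907 with no minimum, 417 and 568 at a log2 change of at least 2. Leaving out 1 library gave 1155 to 1351 and 1440 to 1740, and the compared libraries alone gave 1758 and 2064. DESeq2 gave 1708 and 1798, limma-voom 1447 and 1752, RLE size factors 1604 and 1653, and the fit without contig-named identifiers 1440 and 1852. Without S14, an alternative chosen after seeing the data like all that leave out H15 or S14, they were 1469 and 1947, and 1436 higher and 1847 lower genes were shared. All 4 named genes passed in each of 15 alternatives.

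In hull, the counts were 3452 and 3979 with no minimum fold, 317 and 949 at a log2 change of at least 2, and 1229 to 1582 and 1937 to 2594 with 1 library left out. Library totals gave 914 higher genes, with the median of all genes shifted by -0.23. The compared libraries alone gave 1595 lower genes.

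For 1657 over 1223, they were 69 and 221 at a log2 change of at least 2, 73 and 270 with all libraries of the 3 tissues, and 72 and 93 with the compared libraries alone. With no minimum fold 317 were higher. Leaving out 1 library gave 53 to 153 and 45 to 569.

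For shell minus hull, they were 72 and 25 at a log2 change of at least 2, 18 and 35 with all libraries of the 3 tissues, 502 and 72 with library totals (median of all genes shifted by 0.25), and 362 and 844 without H15 and S14. Limma-voom gave 285 more negative. Leaving out H15 gave 341 and 775. Leaving out any other library gave counts down to 34 (S19) and 67 (S19), and H17, H18, H21, H23, S17, S21 and S22 each moved 1 or both counts by over 1.5 times. The causes were not tested.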
